A study of Mus musculus with 6 samples.

Results

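The 10 genes described here encode antagonists of Wnt signaling that act outside the cell, namely Notum, Wif1, Dkk1, Dkk2, Dkk3, Dkk4, Sfrp1, Sfrp2, Frzb and Apcdd1, out of 19938 genes measured. They were chosen by name, with earlier results of these arrays known, and each was read from the only row of the array table that carries its symbol and no other. Because every gene had exactly 1 such row, no measured value decided which row was used. RNA came from whole pancreata of mouse embryos at E13.5, with 3 pancreata in a pool. The study compared 3 pools of embryos labelled wild type (control pools) with 3 pools of Pdx1-Cre; Ctnnb1 tm1Mmt/+ embryos (mutant pools), on Affymetrix Mouse Gene 1.0 ST arrays with 1 pool per array. In mutant embryos Cre is driven by the Pdx1 promoter, which is active in the pancreatic epithelium, and removes exon 3 from 1 allele of Ctnnb1, so that β-catenin is no longer degraded. Recombination is therefore epithelial and can be incomplete, whereas the arrays report epithelium and mesenchyme together. Beyond wild type, the labels do not say which alleles the control embryos carried.

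In the canonical Wnt pathway, a Wnt ligand carrying a lipid binds a Frizzled receptor and the coreceptor Lrp5 or Lrp6, β-catenin escapes degradation, and together with TCF/LEF factors it activates target genes. Cells restrain the pathway at each of these steps. Notum is a secreted enzyme that removes the lipid from Wnt proteins, Wif1 and the secreted Frizzled-related proteins (Sfrp1, Sfrp2 and Frzb) bind the ligands, and Dickkopf proteins (Dkk1, Dkk2 and Dkk4) bind Lrp5 and Lrp6. Dkk3 is a divergent Dickkopf, and Apcdd1 is a Wnt inhibitor that stays anchored in the membrane, so it is not a freely secreted protein like the others. Several of these genes, Notum, Dkk1, Dkk4 and Apcdd1 among them, are known as targets of β-catenin in other tissues and so form negative feedback loops. A stabilized β-catenin lies downstream of every antagonist listed here.

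Of the 10 antagonists, 8 were higher in mutant than in control pools (limma, adjusted p under 0.05), 0 were lower (also 0 at an unadjusted p under 0.05), and Sfrp2 and Frzb did not pass the test. Over all genes tested, 6.59% were higher and 7.53% were lower by the same rule. Notum, Wif1, Dkk1 and Dkk3 were also at least 2-fold higher, as were 1.3% of all genes. The median log2 change was 0.87 for the 10 antagonists and 0.03 over all genes. Since the genes were proposed with results of this comparison known, these counts, the median and the adjusted p-values below are descriptions and support nothing further. The pools were separate samples by their labels. The p-values set the difference between genotypes against the spread between pools, as moderated by limma, and the spread between single embryos was not measured. In 8 of the 10 genes every mutant pool lay above every control pool, a pattern that 16.9% of all genes shared. Which direction holds more of the calls over all genes depends on scaling: higher genes made up 46.6% of all calls with the deposited values and 35.9% after centring each array on housekeeping genes, against 54.2% after centring on array medians and 50.7% after quantile normalization, but the 8 antagonists kept a positive change and an adjusted p under 0.05 under each of the 3 other scalings tried.

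**Figure D1:**
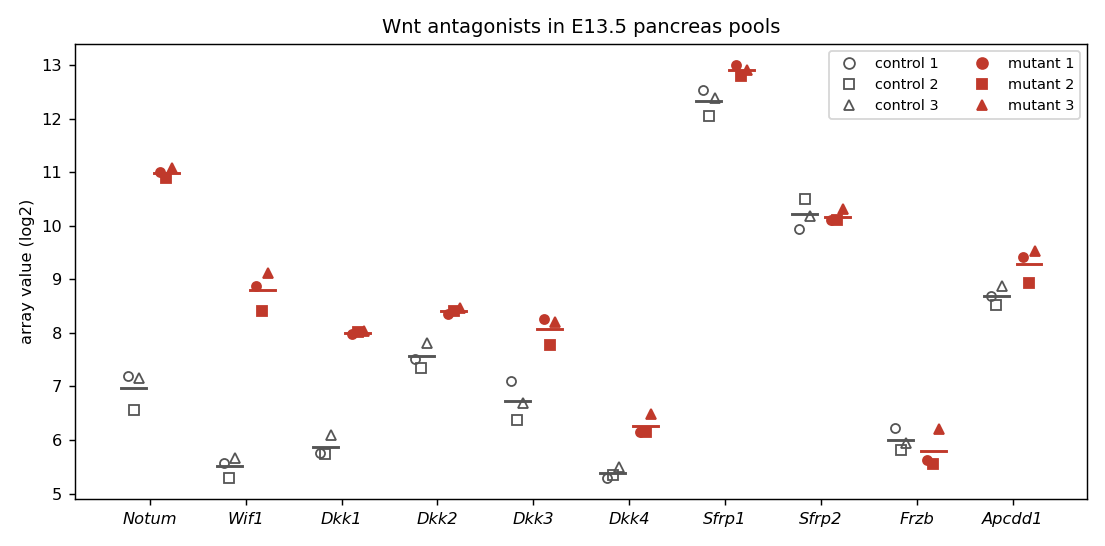
Array values (log2, vertical axis) of the 10 Wnt antagonists in E13.5 pancreata. Each symbol is 1 pool (open grey, control; filled red, mutant; shape gives the replicate), horizontal bars are means of 3 pools, and all mutant symbols sit above all control symbols in every gene but Sfrp2 and Frzb.

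Promoter sequences of 5 of the 10 genes could be matched in RefSeq (GRCm38.p6), each a window of 300 bases that runs from 250 before the start site to 50 after it. Those of Wif1, Dkk1 and Dkk2, which were higher in mutant pools, and that of Sfrp2, which did not pass the test, are shown side by side. They are written 5′ to 3′ on the strand of the gene, and capitals mark CTTTG or its reverse complement CAAAG, the core recognised by TCF/LEF factors.
Wif1 (chr10:121033754-121034053, plus strand): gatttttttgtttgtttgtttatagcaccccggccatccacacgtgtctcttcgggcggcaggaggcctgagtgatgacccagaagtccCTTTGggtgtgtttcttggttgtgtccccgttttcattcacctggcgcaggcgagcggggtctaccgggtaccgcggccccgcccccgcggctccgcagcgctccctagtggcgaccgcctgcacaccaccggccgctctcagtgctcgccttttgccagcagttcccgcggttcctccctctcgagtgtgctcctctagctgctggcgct
Dkk1 (chr19:30549447-30549746, minus strand): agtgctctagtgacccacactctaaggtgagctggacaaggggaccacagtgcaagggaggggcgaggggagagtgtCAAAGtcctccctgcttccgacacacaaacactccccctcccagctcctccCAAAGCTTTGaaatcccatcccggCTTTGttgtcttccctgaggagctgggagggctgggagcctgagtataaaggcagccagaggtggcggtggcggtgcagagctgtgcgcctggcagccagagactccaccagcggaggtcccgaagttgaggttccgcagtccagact
Dkk2 (chr3:132085042-132085341, plus strand): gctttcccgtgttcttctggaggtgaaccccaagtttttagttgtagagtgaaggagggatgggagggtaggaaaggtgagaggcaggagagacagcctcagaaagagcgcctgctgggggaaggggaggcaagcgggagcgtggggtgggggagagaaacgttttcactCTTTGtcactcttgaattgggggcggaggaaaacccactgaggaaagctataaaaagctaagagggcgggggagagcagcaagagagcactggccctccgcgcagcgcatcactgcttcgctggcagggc
Sfrp2 (chr3:83766071-83766370, plus strand): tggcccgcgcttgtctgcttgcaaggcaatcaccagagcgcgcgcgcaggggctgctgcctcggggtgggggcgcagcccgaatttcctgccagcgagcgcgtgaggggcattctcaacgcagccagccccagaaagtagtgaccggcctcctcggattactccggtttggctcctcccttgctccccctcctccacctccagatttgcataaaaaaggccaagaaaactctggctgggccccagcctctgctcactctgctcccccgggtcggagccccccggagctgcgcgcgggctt

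On both strands together, the core occurred at 4 places in the Dkk1 window, which began 173, 122, 117 and 98 bases before the start site. Wif1 had 1 core, 161 bases before its start, and Dkk2 had 1, 80 bases before its start. Frzb, which did not pass the test and whose window is not printed, had 1, 94 bases before its start. The Sfrp2 window held none. Since 53.9% of all 32851 promoter windows hold this core of 5 bases, 4 of 5 is a description and not a mark of these genes. The longer form CTTTGAT (or ATCAAAG) was in 3.73% of all windows and in 0 of the 5, and CTTTGTT (or AACAAAG) in 5.85% of all windows and, of the 5, in that of Dkk1, where it is the last of the 4 cores. TATAAA, in either orientation, was in 13.6% of all windows and in those of Wif1, Dkk1 and Dkk2. In Wif1 it was the reverse form TTTATA, near the end of the window farthest from the start site. With 5 windows and no regard to position, this too is a description and not a mark of these genes. A match gives letters, not binding, and enhancers farther away were not examined.

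The largest change among the antagonists was that of Notum, the Wnt lipid-removing enzyme. Control pools had array values of 7.20, 6.56 and 7.15 (log2), against 11.00, 10.88 and 11.08 in mutant pools. Every mutant pool was above every control pool, and the nearest pools of the 2 genotypes were 3.68 apart on the log2 scale. Notum rose 16.2-fold, from 6.97 ± 0.35 (SD, n = 3) to 10.99 ± 0.10 (log2 change 4.02 with a standard error of 0.16, limma adjusted p = 3.04e-07), the fifth largest increase of all 19938 genes. Leaving out any 1 array gave changes from 3.81 to 4.13.

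Among the proteins that bind Wnt ligands, Wif1 (Wnt inhibitory factor 1) had the largest change. It was measured at 5.57, 5.29 and 5.66 in control pools and at 8.87, 8.41 and 9.12 in mutant pools (log2). The groups were far apart, although the mutant pools differed among themselves by more than the control pools did. Wif1 rose 9.81-fold, from 5.51 ± 0.19 (SD, n = 3) to 8.80 ± 0.36 (log2 change 3.29 with a standard error of 0.17, limma adjusted p = 1.46e-06), which ranked 10 among all increases.

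The secreted Frizzled-related proteins, which carry a Frizzled-like domain that holds Wnt ligands, did not all pass the test. Sfrp1 had high array values in every pool, 12.54, 12.05 and 12.38 in control pools and 13.01, 12.80 and 12.90 in mutant pools (log2). The lowest mutant pool exceeded the highest control pool by 0.26. Sfrp1 rose 1.498-fold, from 12.32 ± 0.25 (SD, n = 3) to 12.90 ± 0.10 (log2 change 0.58 with a standard error of 0.13, limma adjusted p = 0.0138). This call was lost without mutant replicate 1 (log2 change 0.53, adjusted p = 0.0642) and when every row of the table was fitted (adjusted p = 0.0689, and a range of 0.00109 to 0.0689 over its alternatives).
For Sfrp2, a mesenchymal antagonist of the same family, the values were 9.95, 10.51 and 10.18 in control pools and 10.10, 10.10 and 10.30 in mutant pools (log2), with all mutant values inside the range of the control pools. Its log2 change was -0.04 (95% interval -0.36 to 0.27, adjusted p = 0.90 from limma). Frzb (also called Sfrp3) had values of 6.23, 5.81 and 5.94 in control pools and 5.62, 5.56 and 6.21 in mutant pools, and mutant replicate 3 was close to the highest control pool. Its log2 change was -0.20 (95% interval -0.59 to 0.20, adjusted p = 0.564 from limma), but with arrays weighted by their quality it was -0.41 (adjusted p = 0.0461). The interval of Sfrp1 (0.29 to 0.88) and that of Sfrp2 lay just apart, and the difference between their changes was not tested.
Sfrp4 and Sfrp5, which complete the family and were added after their values were seen, did not pass the test either (log2 changes 0.05, adjusted p = 0.827, and -0.48, adjusted p = 0.0607 from limma). Sfrp5 passed in 5 alternatives, which were the fit without mutant replicate 2 (limma adjusted p = 0.00556), centring on housekeeping genes (0.0437), genes above the lower quartile of level (0.042), a trended and robust prior (0.0488) and array weights (0.00194), so the count of called family members depends on these settings.

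Each of the 4 Dickkopf genes was higher in the mutant pools, by amounts that ranged from 1.80-fold to 4.41-fold. Dkk1, an inhibitor of Lrp5 and Lrp6 and a classical feedback target, was at 5.76, 5.74 and 6.10 in control pools and at 7.98, 8.01 and 8.03 in mutant pools (log2). The mutant pools were almost identical, with an SD of 0.02 against 0.20 in the controls. Dkk1 rose 4.41-fold (log2 change 2.14 with a standard error of 0.11, limma adjusted p = 1.42e-06), which ranked 38 among all increases.
Dkk3, which does not act on Lrp5 and Lrp6 like the others, had values of 7.10, 6.37 and 6.69 in control pools and 8.25, 7.78 and 8.21 in mutant pools (log2). It had the widest spread among control pools of all 10 antagonists (SD 0.37), yet the groups did not overlap. Dkk3 rose 2.57-fold (log2 change 1.36 with a standard error of 0.19, limma adjusted p = 0.000792).
Dkk4, another target of β-catenin, was measured at 5.29, 5.34 and 5.50 in control pools and at 6.15, 6.15 and 6.48 in mutant pools (log2). It rose 1.85-fold (log2 change 0.88 with a standard error of 0.12, limma adjusted p = 0.000601). Dkk2, which can block or activate signaling depending on the context, was at 7.51, 7.35 and 7.82 in control pools and at 8.35, 8.40 and 8.46 in mutant pools (log2). It rose 1.80-fold (log2 change 0.85 with a standard error of 0.12, limma adjusted p = 0.00106), and neither gene overlapped between genotypes.

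Apcdd1, the membrane-anchored inhibitor that binds Wnt and Lrp5, was higher in the mutant pools by a narrow margin. Its values were 8.69, 8.52 and 8.87 in control pools and 9.42, 8.93 and 9.52 in mutant pools (log2), and mutant replicate 2 exceeded control replicate 3 by just 0.05. Apcdd1 rose 1.51-fold (log2 change 0.60 with a standard error of 0.16, limma adjusted p = 0.0331). The call did not hold without control replicate 1 (adjusted p = 0.0938), control replicate 2 (0.104), mutant replicate 1 (0.122) or mutant replicate 3 (0.111), nor when every row of the table was fitted (0.127), and over its alternatives the adjusted p ranged from 0.000537 to 0.127.

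Ordered by their change, the antagonists ran from Notum and Wif1 through Dkk1, Dkk3, Dkk4, Dkk2, Apcdd1 and Sfrp1 to Sfrp2 and Frzb. The 95% intervals of neighbours in this order were apart between Wif1 and Dkk1, between Dkk1 and Dkk3 and between Sfrp1 and Sfrp2, and overlapped for every other pair of neighbours. Array values of Wif1, Dkk1, Dkk4 and Frzb in control pools (5.29 to 6.23) lay below the medians of the control arrays (6.41 to 6.47), and signals this low on an array can hold background, which makes a fold change smaller than the change of the RNA. Frzb in every mutant pool (5.56 to 6.21) also lay below the medians of the mutant arrays (6.37 to 6.42). So did Dkk4 in mutant replicates 1 and 2 (6.15 in both). No detection calls were used, so whether these 4 genes were expressed in control pancreata, or Dkk4 and Frzb in mutant pancreata, was not tested.

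**Figure D2:**
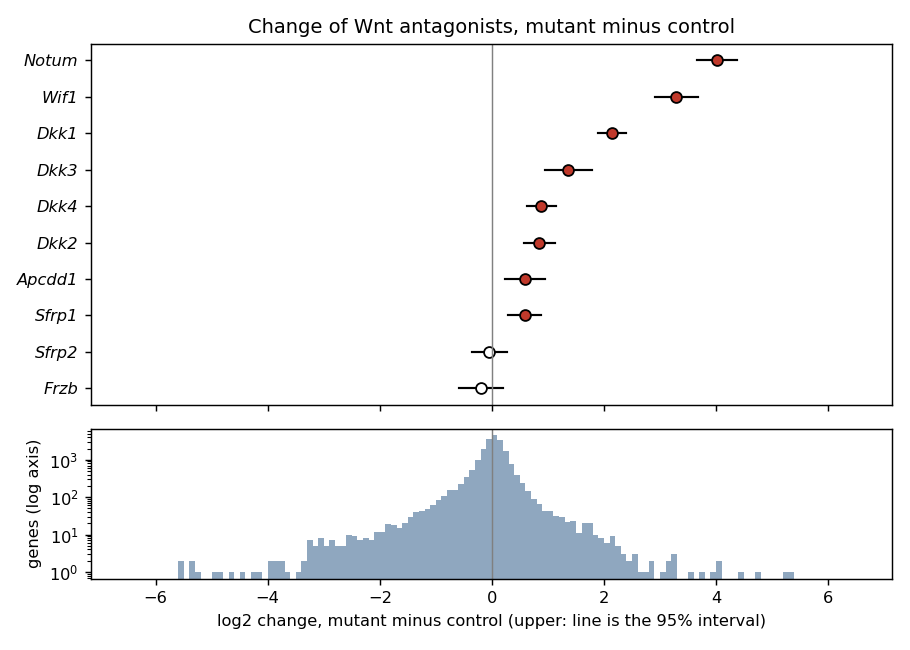
Upper panel, log2 change of each antagonist (horizontal axis, mutant minus control, n = 3 pools per genotype), where lines are 95% intervals from limma and filled points passed an adjusted p under 0.05. Lower panel, the same change for all 19938 genes as a histogram with a log vertical axis, in which Notum (4.02) and Wif1 (3.29) lie in the sparse upper tail.

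The same pools often held the extreme values of several antagonists. Control replicate 2 was the lowest control pool for 8 of the 10 antagonists, all but Dkk4 and Sfrp2, and it was the highest for Sfrp2. Among mutant pools, replicate 2 was the lowest for 7 genes and replicate 3 the highest for 8. The share of all genes with the same pool lowest or highest was not computed, so these counts cannot be called a trait of the antagonists. Control replicate 2 had the highest summed level of 8 pancreatic epithelial markers (14.24 against 14.03 and 13.97, log2 of the summed linear values), and mutant replicate 2 had the lowest summed level of 9 gut mesenchyme markers (13.45 against 13.66 and 13.69). Other marker lists had extremes in the same pools. Control replicate 2 was also highest for general epithelium (14.09), smooth muscle (11.09) and mesothelium (11.36) and lowest for blood (12.48) and housekeeping genes (15.15). Mutant replicate 2 was also lowest for general epithelium (13.08), general mesenchyme (14.38), smooth muscle (11.78), neural and glial (10.31) and housekeeping genes (15.23). It was highest for blood (12.62) and liver (10.73). In replicate order, the gut mesenchyme list was at 12.00, 11.94 and 11.89 in control pools, and the pancreatic epithelial list at 10.59, 10.52 and 10.34 in mutant pools. The part of these levels in the spread of the antagonists was not tested.

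Other inhibitors that act outside the cell or at its surface went in both directions. Among 14 of them, 6 passed the test as higher and 2 as lower, with a median log2 change of 0.22. For the counts in this list and in those below, the shares over all genes were 6.59% higher and 7.53% lower. Sostdc1, which binds Lrp coreceptors and also blocks BMPs, rose 2.50-fold (log2 change 1.32, standard error 0.12). Shisa3 (1.27, standard error 0.12) and Shisa2 (0.98, standard error 0.11), relatives of the frog protein Shisa that holds back Frizzled maturation, and Tpbg (0.94, standard error 0.16), a membrane inhibitor of Lrp6, rose as well. Igfbp4 (0.42, adjusted p = 0.0222 from limma) and Trabd2b (0.48, adjusted p = 0.0141), a membrane protease that cleaves Wnts, made up the 6, and their values had been seen when they were picked. Both lost the call with arrays centred on housekeeping genes (adjusted p = 0.0614 and 0.054) and with every row fitted (0.077 and 0.0605). Igfbp4 also lost it when control replicate 2, control replicate 3, mutant replicate 1 or mutant replicate 3 was left out (limma adjusted p from 0.0664 to 0.0802), and Trabd2b when control replicate 1 was (0.0508).
Against this direction, Cer1, a secreted antagonist of Wnt, Nodal and BMP, fell 6.83-fold. It had array values of 7.75, 8.21 and 7.84 in control pools and 5.05, 5.48 and 4.96 in mutant pools (log2 change -2.77 with a standard error of 0.16, limma adjusted p = 2.69e-06). Draxin, a guidance protein that binds Lrp6, fell by 0.53 on the log2 scale (standard error 0.09).
The coreceptors through which Dickkopf proteins act did not pass the test. Lrp5 had a log2 change of -0.26 (adjusted p = 0.173 from limma), Lrp6 of -0.15 (0.383), Kremen1 of -0.32 (0.059) and Kremen2 of 0.23 (0.166), all 4 named after their values were seen. Kremen1 passed in 7 alternatives, among them quantile normalization (adjusted p = 0.0319) and the fit without mutant replicate 3 (0.0431).

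**Figure D3:**
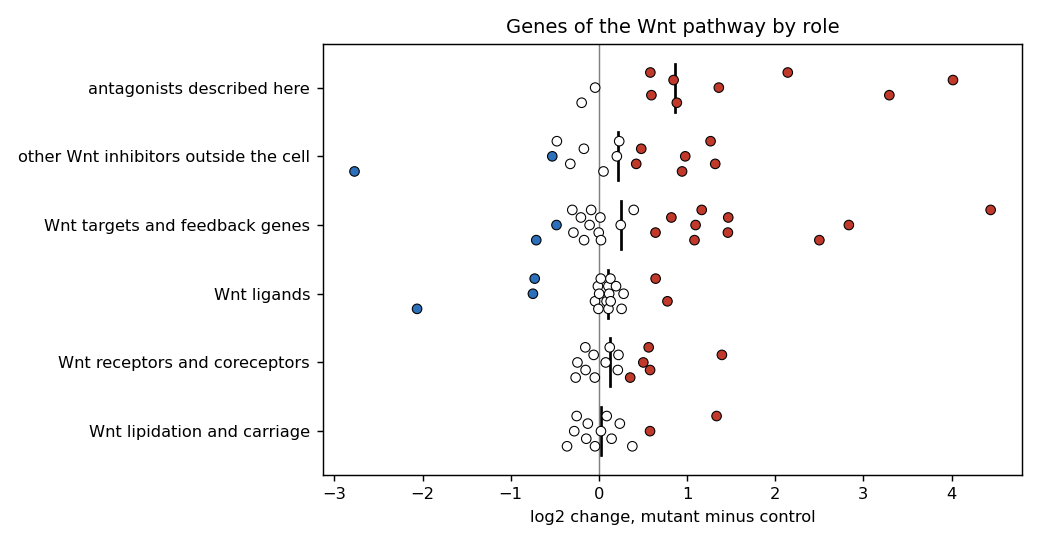
Log2 change (horizontal axis, mutant minus control, n = 3 pools per genotype) of the genes of the Wnt pathway, grouped by role. Each point is 1 gene, red if higher and blue if lower (limma, adjusted p under 0.05) and open otherwise, vertical bars are list medians, and the antagonists have the highest median (0.87) of the 6 lists. The lists were chosen with earlier results of these arrays known, so this order is a description.

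Genes known as targets of β-catenin or as intracellular feedback regulators were also measured. Of 23 such genes, 10 were higher and 2 lower, with a median log2 change of 0.25. Lgr5, the R-spondin receptor of intestinal stem cells, was at 6.53 to 6.81 in control pools and at 10.93 to 11.18 in mutant pools (log2 change 4.44, standard error 0.11). Sp5, a zinc finger target of the pathway, changed by 2.83 (standard error 0.13), Nkd1, an inhibitor of Dishevelled, by 2.50 (standard error 0.17) and Axin2, the feedback scaffold of the destruction complex, by 1.47 (standard error 0.12). Set beside these, Notum (4.02) and Wif1 (3.29) changed by amounts between those of Lgr5 and Sp5, without a test of these differences. Ascl2 (-0.71, standard error 0.13), a stem cell target in the intestine, and Tcf7l2 (-0.48, standard error 0.09), a TCF factor, fell. Ascl2 values (5.99 to 6.38 in control pools and 5.38 to 5.62 in mutant pools) lay below the median of their array in every pool.

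Among the 19 Wnt genes, which encode the ligands that many of the antagonists bind or modify, 2 were higher and 3 lower, with a median log2 change of 0.11. Wnt7b, a ligand of epithelia, was at 8.34, 8.05 and 8.16 in control pools and 6.11, 6.34 and 5.91 in mutant pools, and fell 4.18-fold (adjusted p = 4.26e-06 from limma). Wnt5a, a mesenchymal ligand, and Wnt2b fell by 0.75 and 0.73 on the log2 scale, Wnt5a no longer when every row was fitted (limma adjusted p = 0.0554), and Wnt6 (0.78, standard error 0.11) and Wnt4 (0.64, standard error 0.13) rose.
Of 15 receptors and coreceptors, 5 were higher and 0 were lower (1 at an unadjusted p under 0.05 from limma), with a median log2 change of 0.12. Fzd10 rose most (1.39, standard error 0.12), followed by the alternative receptor Ror1 (0.58, standard error 0.14), Fzd7 (0.56, standard error 0.11) and Fzd1 (0.50, standard error 0.10). Fzd9 (0.35, limma adjusted p = 0.0227) made up the 5, and it lost its call in 7 alternatives (limma adjusted p from 0.0506 to 0.128). Without control replicate 2, mutant replicate 1 or mutant replicate 3, 3 receptors were higher, and Ror1 lost its call in each of these fits, without control replicate 1 (limma adjusted p from 0.0541 to 0.0769 in these 4) and with every row fitted (0.0897).
Among 13 genes for the lipid modification, secretion and surface carriage of Wnts, 2 were higher and 0 were lower (2 at an unadjusted p under 0.05 from limma), with a median log2 change of 0.02. The 2 that were higher were Sdc2, a heparan sulfate proteoglycan (1.33, standard error 0.09), and Ext1, an enzyme that builds heparan sulfate chains (0.58, standard error 0.12).

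Markers of several cell types also differed between the genotypes, and their values stand beside these results. In whole-organ RNA, fewer cells of a type and less RNA per cell cannot be told apart. All 8 pancreatic epithelial markers fell, among them Pdx1, a master regulator of pancreas formation, from 9.93 ± 0.06 to 5.77 ± 0.16 (log2, SD, n = 3), and the summed level of the list went from 13.97 to 14.24 in control pools to 10.34 to 10.59 in mutant pools. All 8 general epithelial markers passed the test as lower, with summed levels of 13.92 to 14.09 and 13.08 to 13.20, and 6 to 8 did when 1 array was left out. Epcam, an adhesion protein of epithelia, lost its call in 8 alternatives (limma adjusted p from 0.0553 to 0.122) and Cldn6, a tight junction protein, without control replicate 1 (0.0528). Of 9 gut mesenchyme markers 7 rose, led by the forkhead genes Foxf2 (4.01, standard error 0.19) and Foxf1 (3.54, standard error 0.11), with summed levels of 11.89 to 12.00 and 13.45 to 13.69. Of 8 smooth muscle markers, 5 were higher and 1 was lower, with summed levels of 10.94 to 11.09 and 11.78 to 11.97.
General mesenchymal markers did not move one way, with 4 of 12 higher, 3 lower and overlapping summed levels of 14.51 to 14.56 in control pools and 14.38 to 14.52 in mutant pools. With 1 array left out, 2 to 3 of them were higher and 2 to 4 lower, and with every row fitted 1 was higher and 2 were lower. Of 6 measured neural and glial markers 5 were lower and 1 was higher (summed levels 10.79 to 10.85 and 10.31 to 10.48), and of 6 liver markers 3 were lower (13.95 to 14.07 and 10.59 to 10.73). Of 6 mesothelial markers 3 were lower (11.10 to 11.36 and 10.54 to 10.89), but 2 without control replicate 1 or mutant replicate 2, and 1 without control replicate 2, control replicate 3 or mutant replicate 1, with the replicate block or with every row fitted. Lrrn4 (log2 change -0.94) was the mesothelial marker that held in all of these, while Upk3b and Wt1 lost their calls in 7 and 6 alternatives.
Of 6 endothelial markers 1 was higher (12.21 to 12.30 and 12.50 to 12.56). This was Cdh5, the cadherin of endothelial cells, which lost its call in 9 alternatives, among them the omission of any 1 array (limma adjusted p from 0.0561 to 0.153). Of 5 blood markers 0 passed the test (limma, 1 at an unadjusted p under 0.05, summed levels 12.48 to 12.90 and 12.45 to 12.62). Of 8 housekeeping genes 1 was higher (15.15 to 15.21 and 15.23 to 15.34), B2m, which lost its call in 8 alternatives, among them the omission of any 1 array but control replicate 2 (limma adjusted p from 0.0599 to 0.162). Which cells made the antagonists, and the part of these shifts in their changes, was not tested.

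**Figure D4:**
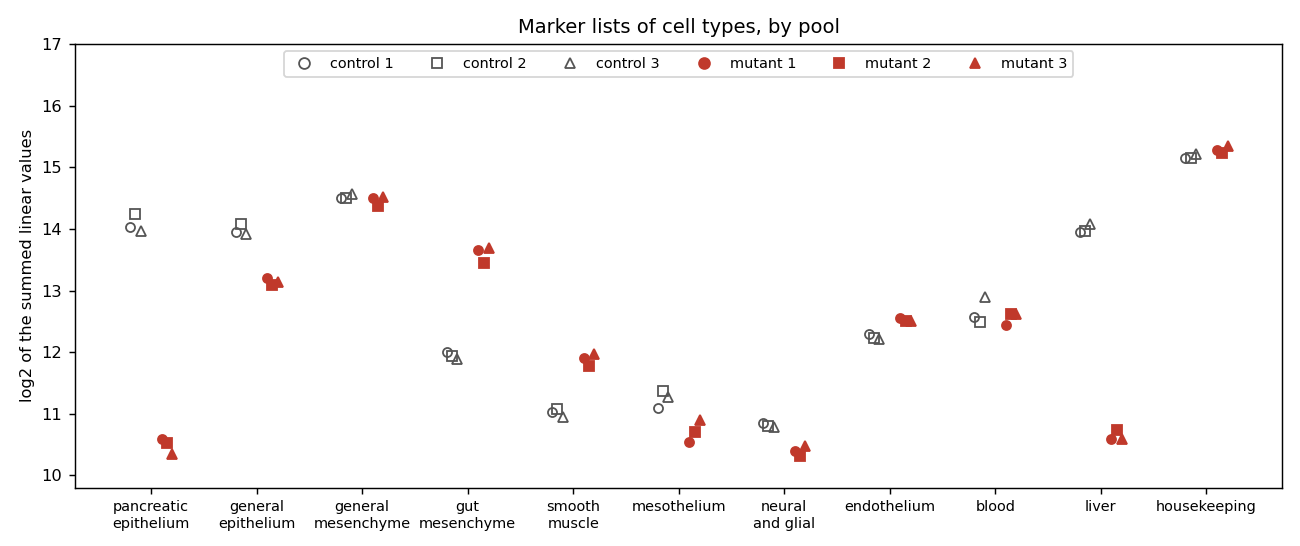
Summed level of each cell type's marker list (vertical axis, log2 of the summed linear array values) in the 6 pools (open grey, control; filled red, mutant; shape gives the replicate). The pancreatic epithelial list is lower and the gut mesenchyme list higher in all 3 mutant pools, while the general mesenchyme list overlaps between genotypes.

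Ctnnb1, the targeted gene, was at 12.14 to 12.36 in control pools and at 12.37 to 12.65 in mutant pools (log2 change 0.28, adjusted p = 0.148 from limma), and its single value covers the whole transcript, so it does not test the loss of exon 3. Across all genes the arrays of a genotype correlated at r = 0.993 to 0.997 and those of different genotypes at 0.973 to 0.979 (genes are not independent replicates). The number of arrays, 3 per genotype, limits the precision of every value.

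**Figure D5:**
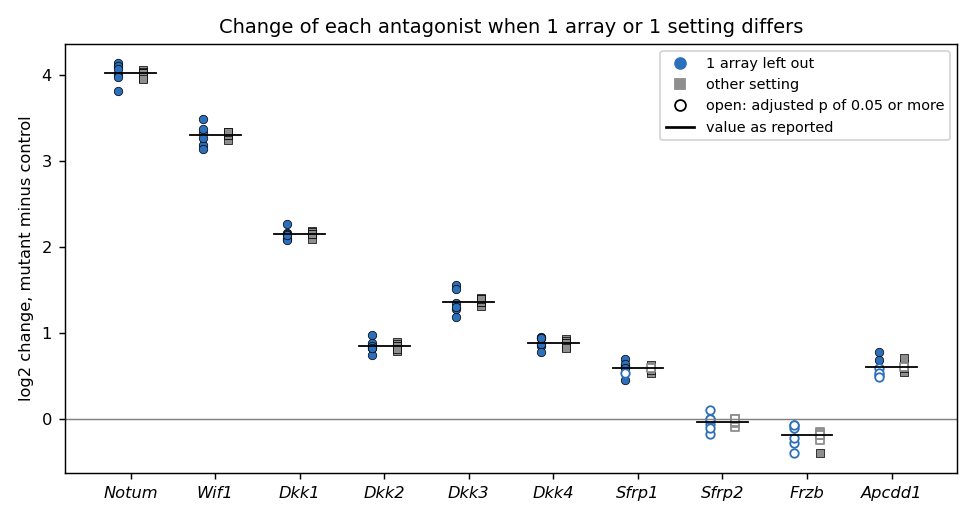
Log2 change of each antagonist (vertical axis, mutant minus control) when 1 array is left out (blue circles) or another setting is changed (grey squares), with the reported value as a black line. Open symbols have an adjusted p of 0.05 or more, which occurs in Sfrp1, Sfrp2, Frzb and Apcdd1, and the sign changes only in Sfrp2.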

How the data were processed

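The authors deposited 1 table of normalized log2 values, in which each row is a transcript cluster. The method for background, probe summary and scaling was not given in the sources used here. Of 35556 rows, 21789 had 1 symbol in the platform annotation, 1621 had several and 12146 had none. Only rows of the first kind entered the comparison, and of several rows for a gene the one with the highest mean was kept, which left 19938 genes. Mutant and control arrays were compared with limma (version 3.58.1, run under R 4.3.3, using lmFit and eBayes without covariate or filter) with Benjamini-Hochberg adjustment over all genes and a threshold of 0.05, and the step was tested on simulated data. Intervals are limma's 95% intervals.

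The genes and lists were chosen with earlier results of these data known. Besides the 10 antagonists, the rule named up to 4 genes per direction from each pathway list and up to 2 from each marker list, and 12 further genes were added after their values were seen (Sfrp4, Sfrp5, Igfbp4, Trabd2b, Kremen1, Kremen2, Lrp5, Lrp6, Gpc3, Epcam, Cldn6 and Upk3b), of which Gpc3 had a log2 change of -0.04. Some genes of the lists are not reported here. Alternatives were the replicate block, each array left out, other scalings, filters, row choices, priors, weights and thresholds. The labels do not say whether replicate numbers pair the pools. Nothing states whether pooled embryos shared litters. Figures used matplotlib 3.10.9 in Python 3.11.15.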

Additional observations from a re-analysis of the deposited data

How the results depend on the processing

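Notum, Wif1, Dkk1, Dkk2, Dkk3 and Dkk4 kept their direction and an adjusted p under 0.05 from limma in every alternative that could be run, while Dkk1, Dkk4 and Frzb are too dim for the fit of genes above the median level. Between 6 and 8 antagonists were higher when 1 array was left out, with 6 without mutant replicate 1. Leaving out 1 array gave changes of 0.45 to 0.69 for Sfrp1, 0.48 to 0.78 for Apcdd1 and -0.17 to 0.10 for Sfrp2, whose sign turned without control replicate 2. With all rows in the fit, Sfrp1 (0.58) and Apcdd1 (0.60) lost their calls. Array weights made Frzb (-0.41) the 1 antagonist that was lower.
The replicate number as a block gave the same 8 antagonists higher and 0 lower, and over all genes 1011 higher and 1274 lower. Deviations of pools with the same number correlated at 0.01, -0.15 and -0.05 across genes. With 3 pools per genotype these values cannot decide whether the numbers pair the pools, and the labels do not say.
Other inhibitors that were lower numbered 4 with housekeeping centring, genes above the lower quartile, a trended and robust prior, array weights or an unadjusted p, and 1 among genes above the median level. Among these brighter genes 1 target was lower, 1 ligand and 3 receptors were higher, and 1 carriage gene was lower. Ligands that were higher numbered 4 with array weights or an unadjusted p, as did carriage genes. Carriage genes that were lower numbered 1 with housekeeping centring, quantile normalization, genes above the lower quartile or the trended and robust prior, 3 with array weights and 2 with an unadjusted p. Receptors that were higher numbered 3 to 5 with 1 array left out and 3 with all rows or an adjusted p under 0.01, and 1 was lower at an unadjusted p. Over all genes, leaving out 1 array gave 843 to 1328 higher (843 without mutant replicate 1), array weights 3025 higher and 2422 lower, an adjusted p under 0.01 723 higher, and an unadjusted p 2695 higher and 2386 lower. The causes were not tested.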
